A study of Mus musculus with 2 samples.

Results

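The Zfp genes of the mouse are the genes whose symbols begin with Zfp and a number, most of which encode proteins with zinc fingers. They were studied here in long-read RNA sequencing of adult hippocampus. The members are the protein-coding genes of that name pattern with 10 or more reads summed over both libraries, chosen by this measured read sum. They came to 268 of the 394 such genes in the GENCODE M21 annotation and 268 of the 11891 annotated genes of any kind with that many reads. Another 93 had 1 to 9 reads and 33 had none. The tissue came from mice of strain B6NCrl (C57BL/6 background) at 6 months of age, described as male although the field for sex was not filled, with no treatment and no altered allele in the labels. Both libraries belong to this single group. They are biological replicate 1 and biological replicate 2, with separate biosamples under a shared donor identifier. It is therefore not known whether they are different animals. The p-values of the main test set these libraries against counting error only and do not measure a spread between animals.

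A C2H2 zinc finger is a short fold in which a pair of cysteines and a pair of histidines hold a zinc ion, and its helix reads a few bases of DNA or RNA. Many Zfp proteins carry long tandem arrays of such fingers behind a KRAB domain, which recruits Trim28 (KAP1) and, through it, Setdb1 and HP1 proteins to silence retroelements and imprinted loci. Other Zfp proteins lack KRAB and act on promoters, on RNA, on ribosomes or at the spindle, and the CCCH proteins of the Zfp36 family bind AU-rich mRNA. The name is therefore shared by unrelated functions.

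The letter patterns that define the family can be read in the coding sequences of the members the results below turn on. The whole coding sequence of the most abundant member is shown first, then the first finger of each other member that differed between the libraries. All are 5′ to 3′ on the coding strand, from the annotated transcripts of GENCODE M21 on mm10, and capitals mark the codons of the paired cysteines and histidines.
Zfp706: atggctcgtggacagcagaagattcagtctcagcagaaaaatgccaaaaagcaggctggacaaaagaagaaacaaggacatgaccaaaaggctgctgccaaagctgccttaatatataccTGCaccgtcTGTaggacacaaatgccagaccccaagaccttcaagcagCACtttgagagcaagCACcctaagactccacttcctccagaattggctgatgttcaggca
Zfp942: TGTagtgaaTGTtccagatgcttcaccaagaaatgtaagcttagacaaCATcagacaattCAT
Zfp579: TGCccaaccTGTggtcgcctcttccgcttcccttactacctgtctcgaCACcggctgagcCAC
Zfp131: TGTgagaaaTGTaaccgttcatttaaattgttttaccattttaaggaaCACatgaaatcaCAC
Zfp706 encodes 76 residues with 1 finger, from coding exons between 37001854 and 37003820 of chromosome 15 (minus strand). The other 3 stretches lie at chr17:21929032-21929094, chr7:4994707-4994769 and chr13:119775972-119776034, all on the minus strand, each within 1 exon.

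The KRAB pattern of the 4 most abundant members that have it is shown next, because it divides the family below. Capitals mark the codons whose residues the search pattern fixed.
Zfp1: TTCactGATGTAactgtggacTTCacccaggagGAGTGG
Zfp612: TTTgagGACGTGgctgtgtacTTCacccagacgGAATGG
Zfp955b: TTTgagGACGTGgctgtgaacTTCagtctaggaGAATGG
Zfp780b: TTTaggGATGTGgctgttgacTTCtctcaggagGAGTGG
They lie at chr8:111666090-111666128 (plus strand), chr8:110083669-110083707 (plus strand), chr17:33300593-33300631 (plus strand) and chr7:27973795-27973833 (minus strand).

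Replicate 1 held 1330153 reads and replicate 2 held 1366252, so 1 read was worth 0.752 and 0.732 CPM (reads of a gene scaled to a library of 1000000), and a count of 0 allows up to 2.26 and 2.20 CPM by the limit of 3 reads. Levels are in CPM per gene, summed over all transcript models. Each long read was counted as 1 molecule and levels were not divided by length. Whether long transcripts were read less often was not tested, and intervals cover counting error only. All 8 markers of hippocampal neurons were detected, at summed levels of 1252 CPM in replicate 1 and 1395 in replicate 2. Replicate 1 stood apart in its choroid plexus genes: 11 of 12 listed markers had enough reads to test and all 11 were higher there, with a summed level of 14230 CPM against 393 CPM in replicate 2, and Kcne2, Otx2 and Aqp1 were at 0 in replicate 2. Pan-neuronal markers summed to 5490 and 6884 CPM and oligodendrocyte markers to 5351 and 7128 CPM in replicates 1 and 2. Meningeal fibroblast markers summed to 1201 CPM in replicate 1 and 2868 in replicate 2, most of it Ptgds (1073 and 2680 CPM), the 1 gene of 5 tested in that list that was called. In tissue RNA, fewer cells of a type and less RNA per cell cannot be told apart, and the part of these differences in the Zfp values was not tested.

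Zfp transcripts were individually scarce but numerous. Members held 5845 reads (4394 CPM, 95% interval 4283 to 4508) in replicate 1 and 6672 reads (4883 CPM, 4767 to 5002) in replicate 2, a mean of 4639 ± 346 CPM (SD, n = 2). The median member stood at 9.77 CPM in replicate 1 and 9.52 in replicate 2, against 25.6 CPM in each library for the other 10987 protein-coding genes with 10 or more reads. Only 21 members had 100 or more reads over both libraries, 101 had 30 to 99 and 146 had 10 to 29. Since the read sum chose the members, these levels are a description. At the limit, 10 genes had exactly 10 reads, among them Zfp109 (2 and 8 reads in replicates 1 and 2), Zfp112 (3 and 7), Zfp119a (7 and 3), Zfp341 (5 and 5) and Zfp454 (5 and 5). Another 8 had 9 reads and fell outside, among them Zfp160 (4 and 5), Zfp335 (6 and 3), Zfp362 (3 and 6), Zfp768 (6 and 3) and Zfp787 (4 and 5).

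Of 4 other zinc finger families that were summed, each has fewer genes and had a smaller total, but 3 had a higher median of reads per gene. The median was 25.5 reads for Zfp members, 30.5 for Zbtb, 43 for Zkscan and Zscan, 81 for Klf and 17 for Zic. The 28 Zbtb genes with 10 or more reads, of 41 annotated, summed to 820 CPM in replicate 1 and 698 in replicate 2. Klf genes (10 of 17) summed to 919 and 681 CPM, Zkscan and Zscan genes (12 of 30) to 232 and 220 CPM, and Zic genes (4 of 5) to 30.1 and 20.5 CPM. The share of annotated genes that reached 10 reads was 68.0% for Zfp, 68.3% for Zbtb, 58.8% for Klf and 40.0% for Zkscan and Zscan.

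Zfp706, a small protein that in mouse embryonic stem cells opposes self-renewal, was far above the rest. It had 606 reads (456 CPM) in replicate 1 and 827 reads (605 CPM) in replicate 2, which was 10.4% and 12.4% of all member reads. The next member, Zfp365, which binds Disc1 and acts in neurite and oligodendrocyte differentiation, had 132 and 156 CPM. Zfp771 had 108 and 127 CPM, and Zfp106, an RNA-binding protein needed for motor neuron maintenance in the mouse, had 85.7 and 120 CPM. These 4 held the same order in both libraries.

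Zfp428 followed with 74.4 CPM in replicate 1 and 87.8 in replicate 2. Zfp148, a binder of GC-rich promoters, had 64.7 and 67.3 CPM. Zfp622, which acts in late maturation of the large ribosomal subunit, had 51.1 and 75.4 CPM, and Zfp207 (BuGZ), which loads Bub3 onto kinetochores, had 52.6 and 63.0 CPM. Below them the remaining 12 of the 20 leading members lay between 33.8 and 56.4 CPM in replicate 1 and between 41.7 and 60.0 CPM in replicate 2. These 12 were Zfp68, Zfp330, Zfp24, Zfp422, Zfp292, Zfp638, Zfp637, Zfp260, Zfp444, Zfp1, Zfp277 and Zfp612. From Zfp148 down, the libraries' values of each gene overlapped those of its neighbour in the order of means. Above it, the values of Zfp106 overlapped those of both its neighbours, Zfp771 and Zfp428. Of the 20, 18 were lower in replicate 1; Zfp292 (56.4 against 41.7 CPM) and Zfp638 (51.1 against 42.5 CPM) were higher there, and only Zfp706 passed the test given below.

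**Figure D1:**
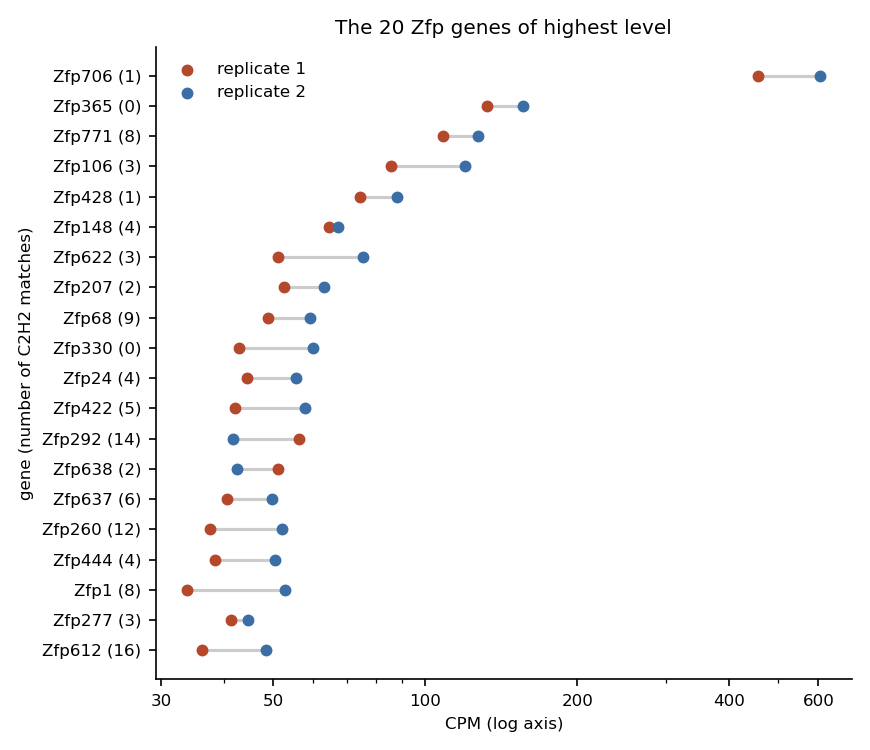
Level of the 20 Zfp genes of highest mean in each library, in CPM on a log axis, with the number of C2H2 matches of each gene in brackets. Points are the libraries and the grey line joins them. Zfp706 stands at 456 CPM in replicate 1 and 605 in replicate 2, and no other gene exceeds 156 CPM.

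The abundant members were short on fingers and on matches to the KRAB pattern. By the pattern of 2 cysteines and 2 histidines, 262 members had at least 1 finger in their reference transcript, 148 had 10 or more and Zfp142 had the most, with 36. Among the 20 leading members 13 had 5 or fewer fingers, compared with 56 of all 268. The KRAB pattern was found in 115 members and in 192 of the 394 annotated genes. Of the genes with the pattern 59.9% reached 10 reads, against 75.7% of the 202 genes without it. The pattern is strict, so a KRAB domain that departs from its fixed letters is counted as without it. KRAB members here and below are those with the pattern. They summed to 1313 CPM in replicate 1 and 1289 in replicate 2, and members without the pattern to 3082 and 3595 CPM. Only 2 members with the pattern, Zfp1 and Zfp612, had 100 or more reads, against 19 members without it. Because membership was set by reads, no test was made on these counts.

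No C2H2 match was found in 6 members. They included Zfp36l1 and Zfp36l2, whose fingers are of the CCCH kind, and Zfp365, Zfp330 and Zfp703.

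Most silencing partners of the KRAB proteins were detected. Of the 23 listed genes of that pathway, 21 had 10 or more reads. Trim28, the KRAB corepressor, had 94.0 CPM in replicate 1 and 131 in replicate 2 (log2 ratio -0.48, adjusted p = 0.0728, Fisher's exact test). Setdb1, the histone H3 lysine 9 methyltransferase it recruits, had 9.02 and 10.2 CPM. Of the HP1 proteins, Cbx3 had 286 and 230 CPM, Cbx5 had 189 CPM in each library, and Cbx1 had 29.3 and 28.5 CPM. Uhrf1 and Atf7ip2 were listed at 0 in both libraries.

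Members with a known role were read against their role lists, none of which held a member that passed the test between libraries. Of the 8 genes listed for imprints and retroelements, 7 are in the annotation and 4 were members. Zfp445, which protects imprints together with Zfp57, had 23.3 CPM in replicate 1 and 22.7 in replicate 2. Zfp932 had 19.5 and 15.4 CPM, Zfp809, which silences murine leukaemia proviruses, had 16 and 7 reads, and Zfp961 had 9.02 and 4.39 CPM. All 4 had a higher CPM in replicate 1, although Zfp445 had 31 reads in each library. None was called, with adjusted p between 0.338 and 1.0 by Fisher's exact test. Zfp57, the other imprint protector, had 1 read in replicate 1 and 0 in replicate 2. Zfp568, a repressor of the placental Igf2 promoter, had 1 read in each.

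Among the RNA-binding members, Zfp638, a binder of cytidine-rich sequence that silences unintegrated retroviral DNA, had 51.1 CPM in replicate 1 and 42.5 in replicate 2. Zfp871 had 26.3 and 26.4 CPM, Zfp326, a subunit of the DBIRD complex that couples transcription to splicing, had 19.5 and 21.2 CPM, and Zfp346, a binder of double-stranded RNA, had 13.5 and 18.3 CPM. The mRNA decay factors were low. Zfp36 (tristetraprolin) had 2 reads in replicate 1 and 1 in replicate 2, Zfp36l1 had 7 and 6, and Zfp36l2 had 4 and 9, and every read of Zfp36l1 and Zfp36l2 was in the genomic class explained below.

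Of the ribosome list, Zfp593, a factor of the pre-60S particle, had 21.8 CPM in replicate 1 and 24.2 in replicate 2 beside Zfp622, and Zfp598, the ubiquitin ligase that senses collided ribosomes, had 2 and 3 reads. All 5 genes of the spindle, splicing and ubiquitin list were members. Zfp451, a SUMO ligase, had 27.8 and 35.9 CPM, Zfp830, a splicing factor, had 36 and 30 reads, and Zfp91, a ubiquitin ligase, had 21.8 and 13.9 CPM.

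Of the 16 listed neural and glial genes, 15 are in the annotation and 11 were members. After Zfp365, the highest by the mean of the libraries was Zfp24, which is required for myelination of the mouse central nervous system, at 44.4 CPM in replicate 1 and 55.6 in replicate 2, followed by Zfp292 at 56.4 and 41.7 CPM, which was the higher of the pair in replicate 1. Zfp189 had 16.5 and 13.9 CPM, Zfp536, which represses neuronal differentiation driven by retinoic acid, had 7.52 and 14.6 CPM, Zfp804a, whose human counterpart is a risk gene for schizophrenia, had 16 and 11 reads, and Zfp423, needed for cerebellar development, had 9.77 and 8.78 CPM. Zfp488, a cofactor of Olig2 in oligodendrocytes, had 1 read in each library. Of the 18 promoter-binding genes of wide expression, 14 were members, led by Zfp148, Zfp260, Zfp644 (33.1 and 24.2 CPM), Zfp410 (27.8 and 26.4 CPM), an activator of Chd4, and Zfp281 (25.6 and 28.5 CPM). Of the 8 genes known from pluripotent cells or other tissues only Zfp560 was a member, with 20 reads in each library. Zfp42 (Rex1) and 5 others of the 8 were listed at 0.

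Between the libraries the members' levels followed each other, with a Spearman rho of 0.816 across the 268 genes, which share library and depth and are not independent replicates. Each gene's reads were set against all remaining reads by a two-sided Fisher's exact test, adjusted by the Benjamini-Hochberg method over 11891 genes. It called 4 members (1.49%), against 707 of all genes tested (5.95%). All 4 were lower in replicate 1, as were 402 of the 707 genes called (3.38% of all genes tested). By read depth, 1 of 146 members with 10 to 29 reads was called (0.685%, against 1.45% of all genes of that depth), 2 of 101 with 30 to 99 (1.98%, against 2.53%) and 1 of 21 with 100 or more (4.76%, against 12.4%). The median log2 ratio of replicate 1 over replicate 2 was -0.09 for members and -0.05 for all genes tested. A higher level in replicate 1 was seen in 125 of 268 members (46.6%) and in 46.1% of all genes tested.

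The 4 called members were lower in replicate 1 by different amounts. Zfp706, at 606 reads in replicate 1 and 827 in replicate 2, had a log2 ratio of -0.41 (95% interval -0.56 to -0.26, adjusted p = 7.57e-06). Zfp131, whose fingers follow a BTB domain, had 27 and 57 reads (20.3 and 41.7 CPM), a log2 ratio of -1.04 (-1.76 to -0.35, adjusted p = 0.0375). Zfp942, a KRAB gene, had 8 and 29 reads (6.01 and 21.2 CPM), a log2 ratio of -1.82 (-3.16 to -0.65, adjusted p = 0.0183). Zfp579 had 4 and 20 reads (3.01 and 14.6 CPM), a log2 ratio of -2.28 (-4.29 to -0.71, adjusted p = 0.0318). These p-values set the libraries against counting error alone. Zfp706 and Zfp131 overlap the annotated antisense genes Gm26766 and Gm41077, and as the strand setting is not known their reads may not be fully separated. With edgeR's exact test, whose common dispersion gives a coefficient of variation of 16.1% between the libraries, no member was called, against 0.42% of all genes tested, and 6 members had an unadjusted p under 0.05. With single-exon models left out, only Zfp706 was called, while the log2 ratio was -0.87 for Zfp131, -1.51 for Zfp942 and -1.96 for Zfp579.

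**Figure D2:**
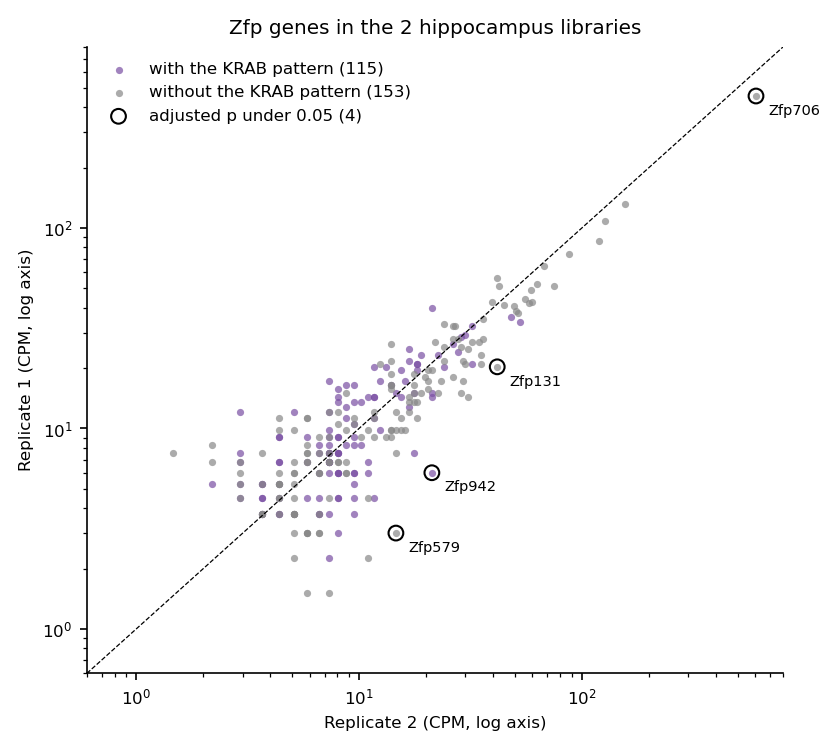
Level of each of the 268 Zfp genes in replicate 1 (vertical) against replicate 2 (horizontal), in CPM on log axes, with the dashed line of equal level. Circles mark the 4 genes of adjusted p under 0.05 by Fisher's exact test, all of which lie below the line, with Zfp706 at 456 CPM in replicate 1 and 605 in replicate 2.

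The transcript models behind these counts were less often annotated than those of other genes. TALON, the program that assigned the reads, sorts models into annotated transcripts, incomplete matches to an annotated intron chain, unannotated combinations of known splice sites, models with a new splice site, and a genomic class. Annotated transcripts held 54.4% of member reads in replicate 1 (95% interval 53.2 to 55.7) and 58.6% in replicate 2 (57.4 to 59.8), a mean of 56.5% ± 2.97 (SD, n = 2), against 69.5% and 71.8% for the other protein-coding genes. The genomic class held 20.2% and 17.1% of member reads, against 8.72% and 6.71% for other coding genes. Spliced models absent from the annotation held 6.26% and 6.10% with known splice sites and 5.89% and 6.07% with a new one, against 3.41% and 3.82% and against 2.85% and 2.87% for the other genes. For each library the counting intervals of members and other genes did not overlap for any of these 4 classes. These intervals treat reads as independent and do not cover the spread between genes, so they do not test a difference between the gene sets. As a mean of the libraries, the annotated share of members was 51.9% without Zfp706 and 47.4% with each member weighed equally. Incomplete matches were the fifth class, and their share was lower in members, at 13.2% and 12.1%, against 15.5% and 14.8% for other coding genes. The shares were not tested over the libraries, since an exact test on 2 pairs cannot pass 0.05. Over genes rather than reads, the median annotated share was 50% for members and 56.6% for other coding genes, and the median unspliced share was 21.1% and 9.09%. The sets were not matched for depth or length. Median reads were 25.5 for members and 69 for other coding genes. The read-weighted median length of annotated models was 3148 and 3058 bases in replicates 1 and 2 for members, against 1733 and 1825. The part of these differences in the shares was not tested.

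**Figure D3:**
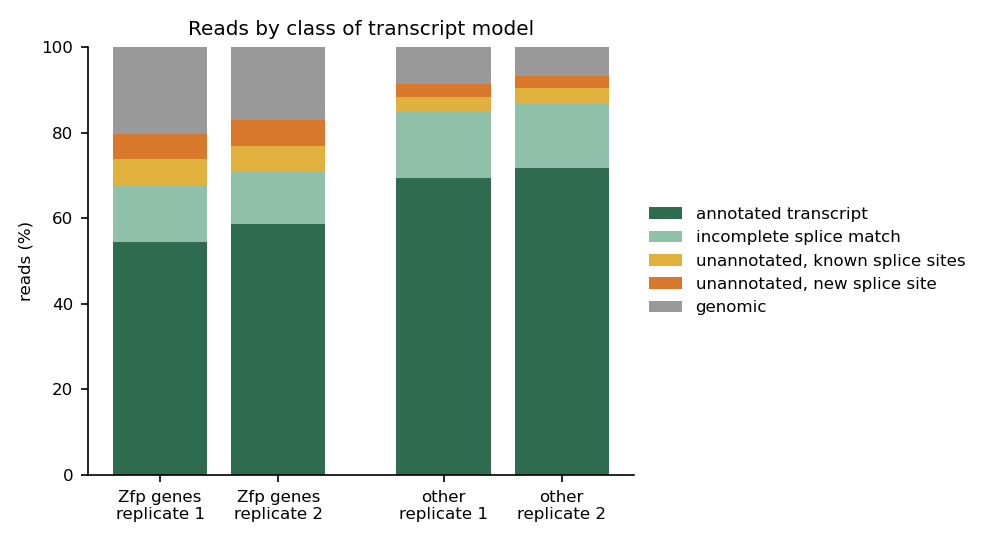
Share of reads in each class of transcript model, in percent, for the 268 Zfp genes and the other protein-coding genes with 10 or more reads, with 1 bar per library. Annotated transcripts hold 54.4% and 58.6% of Zfp reads in replicates 1 and 2, and the genomic class holds 20.2% and 17.1%.

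Members differed widely in how well the annotation described them. Among the 66 members with 50 or more reads, the highest annotated shares were those of Zfp830, whose gene has no intron (98.5%), Zfp593 (93.5%), Zfp775 (93.4%), Zfp706 (92.5%) and Zfp622 (90.6%). The lowest were those of Zfp106 (0.36%), Zfp780b (1.22%), Zfp869 (1.59%), Zfp445 (3.23%) and Zfp326 (3.64%), each for a different mix of reads. Of the 278 reads of Zfp106, 54.7% were incomplete matches and 36.0% genomic, and 1 read lay on a model with its whole coding sequence of 1888 codons. Zfp326 had 85.5% incomplete matches. Of the Zfp780b reads 86.6% were genomic, with 47 reads in replicate 1 and 24 in replicate 2. Zfp445 had 51.6% genomic reads and 40.3% on unannotated combinations of known splice sites. Zfp869 had 42.9% on such combinations, 28.6% on models with a new splice site and 23.8% genomic. In 25 members no read matched an annotated transcript, and in 5 (Zfp691, Zfp710, Zfp36l1, Zfp36l2 and Zfp703) every read was genomic.

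Unspliced reads were 24.4% of member reads in replicate 1 and 20.6% in replicate 2, against 15.3% and 12.1% for other coding genes. Reads on models that lay wholly downstream of the coding sequence within annotated exons made up 40.6% and 41.7% of the unspliced member reads, and those on models that touched coding sequence and stayed within exons 39.8% and 42.7%. For other coding genes the figures were 42.1% and 37.7% downstream and 47.0% and 51.3% touching coding sequence. Zfp365 had 86 and 83 such downstream reads in replicates 1 and 2, and Zfp106 had 35 and 56. An unspliced model pools several reads under a single pair of ends, so these places are those of the models. For Zfp706 the 33 genomic reads of replicate 1 share a model that runs past the annotated end, and the 51 of replicate 2 share a model inside it.

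Most reads, all the same, lay on models that hold the fingers. Coverage here is that of the models, and how far each read ran was not examined. Models that hold the whole finger array of the reference transcript had 64.9% of the reads of finger-bearing members in replicate 1 (95% interval 63.7 to 66.2) and 69.1% in replicate 2 (68.0 to 70.2), and models with the whole coding sequence had 51.9% and 56.0%. Annotated transcripts held every finger for 88.8% and 90.0% of their reads, unannotated combinations of known splice sites for 78.9% and 77.8%, and genomic models for 11.5% and 13.4%. In KRAB members, models with both KRAB and every finger had 56.3% and 60.4% of reads, those with the fingers but not KRAB 6.19% and 7.38%, those with KRAB but not all fingers 12.3% and 11.6%, and those with neither 25.3% and 20.6%. In 114 of the 115 KRAB members the fingers lay in a single exon of the reference transcript. No read on a model with the whole coding sequence was found in 40 members, among them 13 of the 24 that encode 1000 or more residues.

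**Figure D4:**
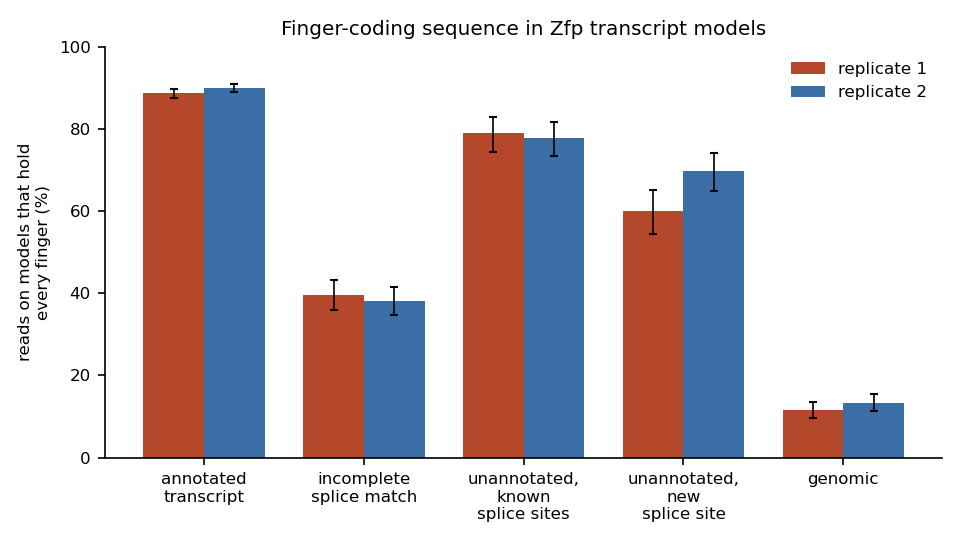
Share of reads that lie on models holding every C2H2 finger of the gene, in percent, by class of transcript model and library, with 95% Clopper-Pearson intervals for counting error. Annotated transcripts reach 88.8% and 90.0% in replicates 1 and 2, and genomic models 11.5% and 13.4%.

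For a few members the leading transcript encodes no finger. Zfp931-201, which encodes 64 residues with the KRAB pattern and no finger, took 28 of 31 reads in replicate 1 and 34 of 35 in replicate 2, although another annotated transcript of Zfp931 encodes 7 fingers. Zfp451-202, with 559 residues and none of the 9 fingers of the full transcript, took 16 of 27 reads in replicate 1 and 18 of 34 in replicate 2. Zfp644-216, with 122 residues and none of the 7 fingers of the reference transcript, took 7 of 41 reads in replicate 1 and 4 of 26 in replicate 2. Zfp560 was not among the members whose leading model was examined. Of its reads, 18 of 20 in replicate 1 and 20 of 20 in replicate 2 matched an annotated transcript. Only 1 read lay on a model with all fingers of its reference transcript. These genes were picked out after their values were seen. Of the 54 finger-bearing members with 20 or more reads in each library, genomic reads left out, the leading model was an annotated transcript with every finger in 40.

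Of 56 members with enough reads none differed in the share of its leading model by Fisher's exact test with adjustment over all genes, against 3.19% of the 6262 genes tested, and 2 had an unadjusted p under 0.05. The smallest adjusted p was 0.135, for Zfp422, whose transcript Zfp422-202 took 31 of 56 reads in replicate 1 and 51 of 64 in replicate 2. For this gene unspliced reads were classed as incomplete matches in replicate 1 and as genomic in replicate 2, and genomic reads do not enter the share. The median leading share was 66.0% for members and 70.4% for other genes.

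Some unannotated spliced models recurred in both libraries, though most did not. Members had 823 unannotated spliced models, 142 of which were found in both libraries and 55, from 45 genes, with 2 or more reads in each. Of these 55, 48 hold every finger, 30 hold the whole coding sequence and 21 combine introns that are all annotated. The most abundant, in Zfp617 (chromosome 8), had 16 reads in replicate 1 and 14 in replicate 2, which was 41.0% and 34.1% of the gene's reads. It joins known splice sites across an intron of 3690 bases, chr8:71928329-71932018. The model was not scored as holding every finger. As 58 of the gene's 80 reads lay on models that do, this need not apply to it in each library. Zfp617 overlaps the protein-coding gene Zfp882 on the same strand, and whether this model belongs in part to Zfp882 was not tested. Zfp397 had 2 models with only annotated introns, at 13 and 16 reads and at 11 and 6 reads, both with the whole coding sequence. A Zfp771 model with a new intron of 363 bases, chr7:127244609-127244971, had 12 and 15 reads and also kept the coding sequence. In Zfp869 a model that begins upstream of the annotated gene, across an intron of 5783 bases, had 8 and 7 reads, and a Zfp445 model of 7 exons had 5 and 10 reads.

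Zfp genes lie in tandem groups, and groups differed in how many genes reached 10 reads. Joining genes no more than 250000 bases apart gave 18 groups of 5 or more genes, with 110 members among 164 genes (67.1%), against 69.0% of the 142 genes that stand alone. All 13 genes between 32765496 and 33631779 of chromosome 17 were members, as were 11 of 12 between 24081924 and 24587641 of chromosome 7. By contrast, none of the 15 KRAB genes in the 2 groups of distal chromosome 4 was a member. The group between 146971976 and 147848366 had 12 reads in replicate 1 and 14 in replicate 2 over 10 genes, the most of them on Zfp933 (4 in each library), and the group between 145510759 and 146198755 had no read over 5 genes. The genes of these groups share much sequence. A median of 79.2% and 89.5% of their 25-base words also occur in other annotated genes, compared with 2.57% for members, and whether reads were left unassigned for this reason was not tested.

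**Figure D5:**
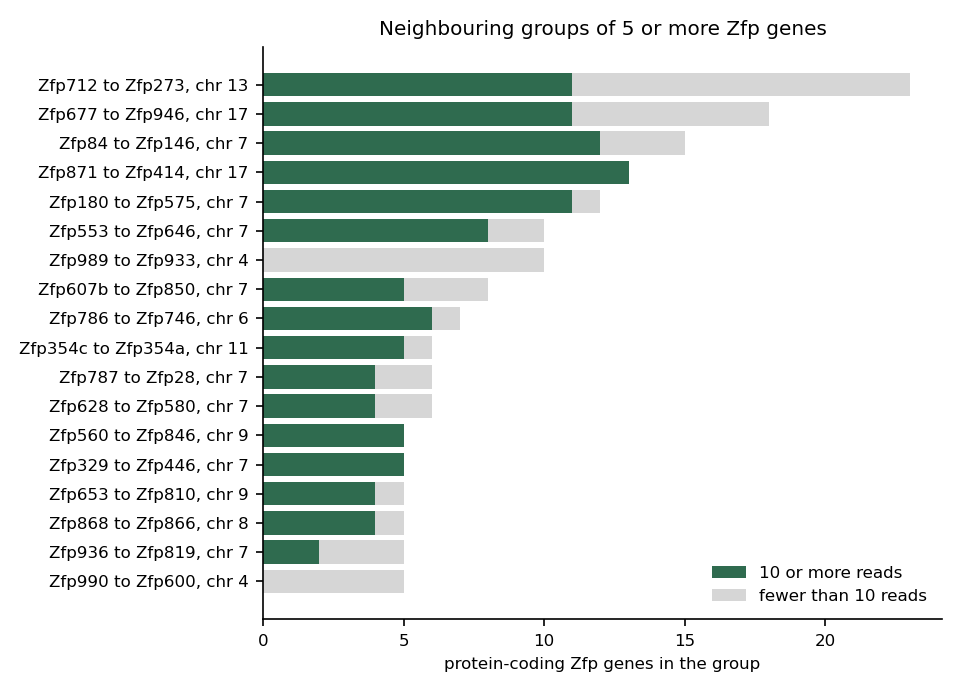
Number of protein-coding Zfp genes in each group of 5 or more neighbours, split into genes with 10 or more reads and genes with fewer, labelled by the first and last gene and the chromosome. The group from Zfp871 to Zfp414 on chromosome 17 has 13 of 13, and both groups on chromosome 4 have 0.

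Near-identical members limit some counts. In 34 members 20% or more of the 25-base words occur in a single other gene, so reads may have been split between copies. Zfp973 (21 reads in replicate 1 and 11 in replicate 2) and Zfp965 (6 and 13) are such a pair, as are Zfp955b (43 and 44) and Zfp955a (10 and 11). In each of the 5 fingers that could be compared, Zfp973 had a stretch of 84 bases identical to one of Zfp965. Each of 10 such stretches in Zfp955b was paired with the closest stretch of Zfp955a wherever it lies in the protein, and 3 were identical. The pair that differs most follows, with bases that differ in capitals, beside the first pair compared in Zfp973 and Zfp965. The Zfp955 stretches are not at the same place, since they start at codon 460 of Zfp955b and codon 376 of Zfp955a, both of 545 codons.
Zfp955b: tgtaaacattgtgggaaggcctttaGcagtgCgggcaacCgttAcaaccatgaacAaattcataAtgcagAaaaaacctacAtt
Zfp955a: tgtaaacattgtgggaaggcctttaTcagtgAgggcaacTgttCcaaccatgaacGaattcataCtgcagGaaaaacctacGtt
Zfp973: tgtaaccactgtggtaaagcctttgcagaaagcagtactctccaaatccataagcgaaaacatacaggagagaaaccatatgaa
Zfp965: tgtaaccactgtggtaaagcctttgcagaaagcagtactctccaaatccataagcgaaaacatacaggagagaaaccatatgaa
They lie at chr17:33302936-33303019 (plus strand), chr17:33241948-33242031 (minus strand), chr2:176680287-176680370 and chr2:175479750-175479833 (both plus strand). The Zfp955 stretches differ at 8 of 84 bases.

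Promoter composition was described by group medians alone. RefSeq promoters (GRCm38.p6, from 250 bases before to 50 after the gene start) were matched by symbol for 224 members, 101 Zfp genes that were not members and 8665 other coding genes. The median ratio of observed to expected CpG was 0.648 for members, 0.521 for Zfp genes below the limit and 0.780 for other coding genes, and the median GC content was 55.3%, 52.3% and 61.7%. These are descriptions, since reads chose the groups.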

How the data were processed

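For each library the authors deposited a table of raw counts, the whole number of long reads on each TALON transcript model, without normalization. Per the file headers and the description files deposited with the data, TALON made the models on mm10 with GENCODE M21. Aligner, platform, read filters, strand setting and TALON version: not given in the sources used here. Thus reads of overlapping or antisense genes may not be separated. The other values used from the deposited files are the number of exons, the model length and the exon coordinates.

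Counts were summed per gene over all models, and CPM used all reads of the library (1330153 in replicate 1, 1366252 in replicate 2). Genes with 10 or more reads were compared by two-sided Fisher's exact test (scipy 1.17.1) with Benjamini-Hochberg adjustment at 0.05. A negative binomial model with groups could not be fitted, as there is 1 group. The exact test of edgeR 4.0.16 with a common dispersion from both libraries, and size factors of DESeq2 1.42.0, were alternatives. Models were matched between libraries by intron chain. The tests were run on simulated data that held counting error and planted changes only. That check cannot show how they behave under further variation between libraries. Fingers, KRAB and reference transcripts came from letter patterns in translated GENCODE coding sequences. The reference transcript is the one with most fingers, then the longest. The finger pattern was 2 cysteines with 2 to 4 residues between, 12 residues, and 2 histidines with 3 to 5 between. Members, gene lists and tests were chosen with earlier results of these data known. Named members are the 20 of highest mean CPM, those past the test, those of the role lists, those of the 5 highest and 5 lowest annotated shares, the 5 most abundant unannotated models and those at the limit of 10 reads. The result of 1 listed gene of the silencing pathway is not reported here.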

Additional observations from a re-analysis of the deposited data

Results flagged for a closer look

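Loci that TALON placed on the strand opposite to an annotated gene were not counted for the members. Over the spans of 102 members such loci held 389 reads in replicate 1 and 191 in replicate 2, above the limit of 3 reads that a count of 0 allows. Antisense loci of the whole genome held 70997 reads in replicate 1 and 41241 in replicate 2. The most were at Zfp780b, with 45 and 17 antisense reads beside 53 and 29 sense reads in replicates 1 and 2, at Zfp334 with 20 and 14, and at Zfp385b with 20 and 13. Zfp691, whose sense reads are all genomic, had 18 and 15. The strand setting is not given in the sources used here, and whether such reads come from the opposite strand was not tested.

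Genes with Zfp symbols that are annotated as pseudogenes or non-coding RNA lie outside the rule. Reads were found for 10 of them, 56 in replicate 1 and 46 in replicate 2, led by the pseudogene Zfp125 with 20 and 15.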

How the results depend on the processing

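The count of 4 members called between the libraries was 3 or 4 with TMM library sizes, DESeq2 size factors, no filter, a minimum of 30 reads, and genomic and incomplete models left out. It was 1 without single-exon models and 1 with annotated transcripts alone, which leave fewer members to test (209 and 155 of 268), and 0 with edgeR's exact test. Fewer were also tested without genomic and incomplete models (195) and at a minimum of 30 reads (122), where Zfp579, with 24 reads, was not tested. Over all genes, 707 were called, against 401 without single-exon models, 425 with annotated transcripts alone and 50 with edgeR's exact test. Every member called under these settings was lower in replicate 1. Zfp706 was called under each of them except edgeR's exact test, where its adjusted p was 1.0. Among these settings Zfp131 kept its call only at a minimum of 30 reads; its adjusted p was 0.0535 with TMM sizes, 0.0537 with DESeq2 size factors, 0.0582 with no filter, 0.322 without genomic and incomplete models, 0.198 without single-exon models, 0.397 with annotated transcripts alone and 1.0 with edgeR's exact test. With genomic and incomplete models left out, 3 of the 4 stayed and Zfp647 was added.

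The summed level of 4639 CPM was 3192 CPM without genomic and incomplete models, 3598 CPM without single-exon models and 4108 CPM without Zfp706, a setting added after the data were seen. It was 4394 CPM with replicate 2 left out and 4883 CPM with replicate 1 left out. The annotated share of 56.5% was 47.4% with each member weighed equally and 51.9% without Zfp706, also added later. Leaving out either library gave 54.4% to 58.6%. No leading share was called at a minimum of 10 reads or without incomplete models. No paired analysis was possible because the labels give a single group. Members of 10 to 29 reads, 146 of 268, have wide counting intervals.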
